A study of Oryctolagus cuniculus with 2 samples.

Results

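The genes described here encode the receptors of acetylcholine, serotonin, dopamine, adrenaline and noradrenaline. They were chosen by symbol, as probe sets with exactly 1 gene symbol in the platform annotation whose name begins with Chrm, Chrn, Htr, Drd, Adra or Adrb followed by a subtype. Htra proteases were left out, as were the nicotinic subunits Chrna6 and Chrnb3. This gave 42 receptor genes of 15605 named genes, each read by 1 probe set. They comprise 5 muscarinic acetylcholine receptors, 12 nicotinic acetylcholine receptor subunits, 14 serotonin receptors, 4 dopamine receptors and 7 adrenergic receptors. The symbols are written as the study writes gene names, so that HTR1B of the annotation is Htr1b. All 42 carry the same symbol in the RefSeq gene table of rabbit assembly mOryCun1.1, and Htr5bp is listed there as a protein-coding gene.

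The study compared retinal RNA of Dutch rabbits after retinal vein occlusion (RVO) with untreated retina at day 7, with 1 Rabbit Gene 1.0 ST array for RVO and 1 for the control. This type of array reads a transcript through several short probes. An argon laser closed retinal veins in right eyes, and control RNA came from left eyes. Retina at the laser spots, cut away at a diameter of 3 mm, was not part of the RNA. The methods state 1 array per group, and no count of rabbits behind each array was found in the sources used here. Agents that act on the products of these genes were part of the procedure: the rabbits were anesthetized with ketamine and xylazine, an agonist of alpha-2 adrenergic receptors, and pupils were dilated with tropicamide, a muscarinic antagonist, and phenylephrine, an agonist of alpha-1 adrenergic receptors. The sources do not say whether the left eyes received the drops.

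These receptors are of 2 structural kinds. Nicotinic subunits and the serotonin receptors of the Htr3 group assemble in rings of subunits into ion channels that the transmitter opens directly. All the others cross the membrane as single chains and signal through G proteins: the Gs class raises cyclic AMP, the Gi/o class lowers it, and the Gq class releases calcium from internal stores. In the mammalian retina acetylcholine comes from starburst amacrine cells and dopamine from a sparse population of amacrine cells, and both act on neurons that include ganglion cells, the output neurons of the retina. Nicotinic receptors of muscle have subunits of their own and sit at the junction of nerve and muscle fiber.

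Signals are log2 values after RMA, the authors' normalization, and differences are RVO minus control on that scale, where 1 is a 2-fold difference. A probe set's signal depends on its probes, so signals were compared between arrays and not between genes. With 1 array per group there is no replicate error, and no difference was tested. As a measure of technical disagreement, 118 other genes had more than 1 probe set past the signal limit, and log2 differences within such a gene had a pooled SD of 0.19. This SD leaves out the spread between animals and between arrays. Following the study's methods, a gene was read when its higher signal reached 5. Of the 42 receptor genes, 30 did so, among 12724 genes in all. For 5 of the 30 only one array reached 5: the RVO signal was under it for Htr1b, Drd5, Adra2b and Htr5a, and the control signal for Chrna1. These 5 passed through the array in which they were higher, so their size and direction are tied to the limit.

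Of the 30 receptor genes, 22 differed by less than 0.5 on the log2 scale (73.3%), beside 85.9% of all genes, and 2 were beyond 2-fold, where 3.98% of all genes were. Htr2b was the 1 receptor gene beyond 2-fold on the higher side, where 3.5% of all genes lay (445 of 12724). Htr1b was the 1 on the lower side, where 0.479% of all genes lay (61 of 12724). The other 28 lay between -0.78 and 0.76. The median of the 30 was -0.14, beside -0.04 over all genes, and 22 of the 30 (73.3%) were below 0, beside 56% of all genes. With no signal limit, 30 of the 42 were below 0, beside 55.8% of all genes, and the median was -0.14. At a 1.5-fold limit, 3 receptor genes were higher (Htr2b, Chrnd and Chrna1), where 7.25% of all genes were, and 5 were lower (Htr1b, Chrna3, Drd1, Drd5 and Chrm4), where 3.03% of all genes were. Beyond 3-fold, Htr1b was the 1 lower receptor gene, where 0.0629% of all genes were, and none was higher, where 1.52% were. Chrna1 among the higher genes and Htr1b and Drd5 among the lower passed the signal limit in one array only. Over the 25 receptor genes that reached 5 in both arrays, 18 were below 0, beside 56.3% of all genes read that way. Of these 25, Htr2b was higher by over 2-fold, where 2.66% of all genes were, and none was lower, where 0.439% were. At 1.5-fold, 2 of the 25 were higher (Htr2b and Chrnd), where 6.06% of all genes were, and 3 were lower (Chrna3, Drd1 and Chrm4), where 2.78% were. These are counts by size alone, in 2 arrays.

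**Figure D1:**
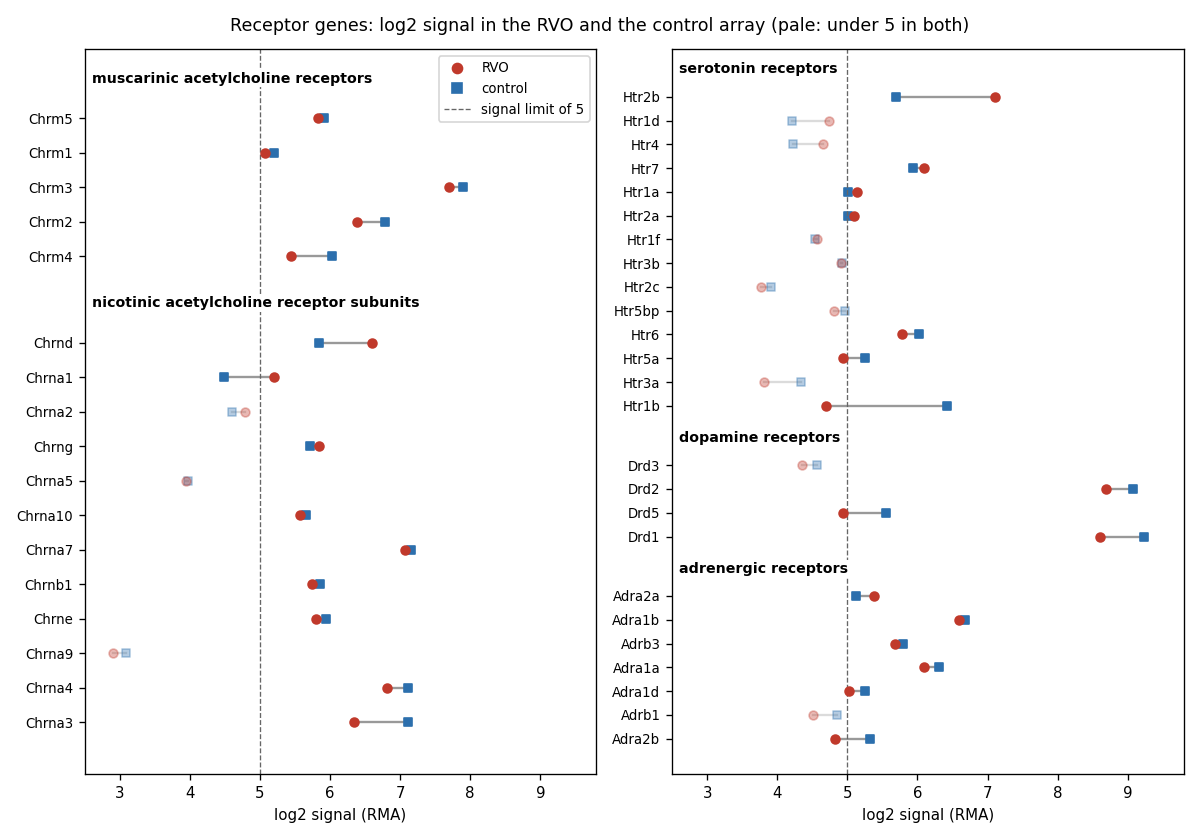
Log2 signal (x axis) of each of the 42 receptor genes in the RVO array (circles) and the control array (squares), in 5 families and ordered within each by difference, with no error bars since each group is 1 array. The longest lines belong to Htr2b, to the right of its control, and Htr1b, to the left of it, and the 12 pale pairs lie under the signal limit of 5 in both arrays.

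Serotonin receptors spread the widest of the families. Htr2b, a Gq-coupled receptor known from heart valves, smooth muscle and mouse microglia, had a log2 signal of 7.11 in the RVO array and 5.70 in the control array, both above 5. The difference of 1.41, or 2.66-fold, placed it 245th from the top of 12724 genes. Htr1b, a Gi/o-coupled receptor that in rodents sits on axon terminals, those of ganglion cells among them, had a signal of 4.69 in the RVO array and 6.43 in the control array. The difference of -1.74, or 0.30-fold, was the fifth lowest of all genes, and it rests on an RVO signal under 5. The other 5 serotonin receptors past the limit lay between -0.31 and 0.16. Htr1a, the Gi/o-coupled autoreceptor of serotonin neurons, had 5.14 in the RVO array and 5.01 in the control array, and Htr2a, a Gq-coupled receptor of cortical neurons and platelets, had 5.10 and 5.02 in the same order. Htr7, a Gs-coupled receptor, had 6.09 in the RVO array and 5.94 in the control array, and Htr6, also coupled to Gs, had 5.78 and 6.02 in the same order. Htr5a, coupled to Gi/o, had 4.94 in the RVO array and 5.26 in the control array, a difference of -0.31. For Htr1a, Htr2a and Htr7 the difference was smaller than the probe set SD of 0.19. The median of the 7 was 0.08, and 3 of them were below 0, beside 56% of all genes. Over the 5 that reached 5 in both arrays the median was 0.13, and 1 was below 0, beside 56.3% of all genes read that way.

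Cell type markers also differed between the arrays, and their part in the differences of Htr2b and Htr1b was not tested. Of 13 microglia and macrophage genes past the limit, 12 were beyond 2-fold on the higher side, where 3.5% of all genes were, and the median was 1.92. The summed linear signal of the 13 was 4612 in the RVO array and 1145 in the control array. Those that reached 5 in both arrays, 11 genes, were all higher by over 2-fold, where 2.66% of all genes were. Fibroblast genes were higher by over 2-fold in 10 of 12 cases, and in 7 of the 9 that reached 5 in both arrays. The summed linear signal of the 12 was 6004 in the RVO array and 1162 in the control array. Such sums lean on the brightest probe sets, here Lum and Dcn, at log2 signals of 11.34 and 10.90 in the RVO array. Smooth muscle and pericyte genes were higher by over 2-fold in 4 of 9 cases, and in 3 of the 8 that reached 5 in both arrays. This list was mixed, with 3 of the 9 below 0 and a median of 0.49. Of the 4 higher genes, 1 is also in the list of skeletal muscle genes used below. Summed linear signals of the 9 were 1262 in the RVO array and 496 in the control array. Genes of these lists that passed through the RVO array alone have a size and direction tied to the limit. Of 15 ganglion cell genes, 6 were beyond 2-fold on the lower side, where 0.479% of all genes were, with a median of -0.70. These 6 were among the 14 that reached 5 in both arrays, where 0.439% of all genes were lower by over 2-fold. Summed linear signals of the 15 were 5885 in the RVO array and 10350 in the control array. The Müller glia and pigment epithelium lists were each split. Medians were 0.33 for 10 Müller glia genes, 4 of them below 0, and -0.42 for 8 pigment epithelium genes, 5 of them below 0. Below 0 lay 56% of all genes. For housekeeping genes the median was -0.07, and 1 of 9, B2m, was beyond 2-fold. Among 6 lens genes Crygs, a crystallin, had 10.45 in the RVO array and 5.98 in the control array, and this difference of 4.47 was the highest of all 12724 genes. The other 5 lens genes lay between -0.29 and 0.50, and the summed linear signals of the 6 were 1693 in the RVO array and 368 in the control array. In bulk RNA, fewer cells of a type and less RNA per cell cannot be told apart. The labelled tissue was checked on 9 rod and cone genes, which were all above 5 in both arrays.

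None of the 9 nicotinic subunits past the limit passed 2-fold, where 3.98% of all genes did. The largest differences were those of Chrna3, which was lower, and of Chrnd and Chrna1, which were higher. The median of the 9 was -0.09, and 6 were below 0, beside 56% of all genes. The neuronal subunit Chrna3, known for the receptor of autonomic ganglia, had a signal of 6.34 in the RVO array and 7.12 in the control array, a difference of -0.78 or 0.583-fold, and ranked 150th from the bottom of 12724 genes. Chrna4, which with the beta-2 subunit forms the main high-affinity receptor of the brain, had 6.82 in the RVO array and 7.11 in the control array. Chrna7, which forms a calcium-permeable channel by itself, had 7.07 in the RVO array and 7.16 in the control array. Chrna10, a subunit of the receptor of cochlear hair cells, had 5.57 and 5.65 in the same order. All 4 neuronal subunits past the limit were below 0, beside 56% of all genes, with a median of -0.19. For Chrna7 and Chrna10 the difference was smaller than the probe set SD of 0.19. That of Chrna10 turned to 0.01 with the trend with mean signal removed. Chrna6 and Chrnb3, which the selection left out, were lower than any of these 4, at -1.93 and -1.58.

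The 5 subunits of the muscle receptor were split. Chrnd, the delta subunit, had 6.60 in the RVO array and 5.84 in the control array, a difference of 0.76 or 1.70-fold. A second probe set that the annotation gives to both Chrnd and Prss56 had 6.45 in the RVO array and 6.13 in the control array, a difference of 0.31. Chrna1, the alpha subunit that binds acetylcholine in muscle, had 5.21 in the RVO array and 4.49 in the control array, a difference of 0.71 from a control signal under 5. Chrng, the gamma subunit of fetal muscle, differed by 0.14, while Chrne, the epsilon subunit that replaces it in the adult, differed by -0.15 and Chrnb1, the beta subunit, by -0.13. These last 3 were within the probe set SD of 0.19. The median of the 5 was 0.14. In the same arrays 18 of 21 skeletal muscle contractile genes past the limit were higher by over 2-fold, where 3.5% of all genes were, and none was lower. The median of the 21 was 2.78, with summed linear signals of 7105 in the RVO array and 997 in the control array. Of the 21, 15 reached 5 in both arrays, and 12 of these were higher by over 2-fold, where 2.66% of all genes were. The others passed through the RVO array alone, so their size and direction are tied to the limit. The part of muscle RNA in the values of Chrnd and Chrna1 was not tested. None of 6 genes of the nerve-muscle junction past the limit passed 2-fold, where 3.98% of all genes did. They lay between -0.49 and 0.21, with 3 below 0. Their median of -0.04 turned to between 0.01 and 0.11 under 5 of the alternatives, so no direction is given for the list. Musk, the receptor kinase that organizes the junction, had 4.83 in the RVO array and 5.32 in the control array. Rapsn, the protein that clusters the receptor, had 5.96 in the RVO array and 6.13 in the control array. Lrp4, the receptor of agrin, had 7.40 in the RVO array and 7.20 in the control array.

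**Figure D2:**
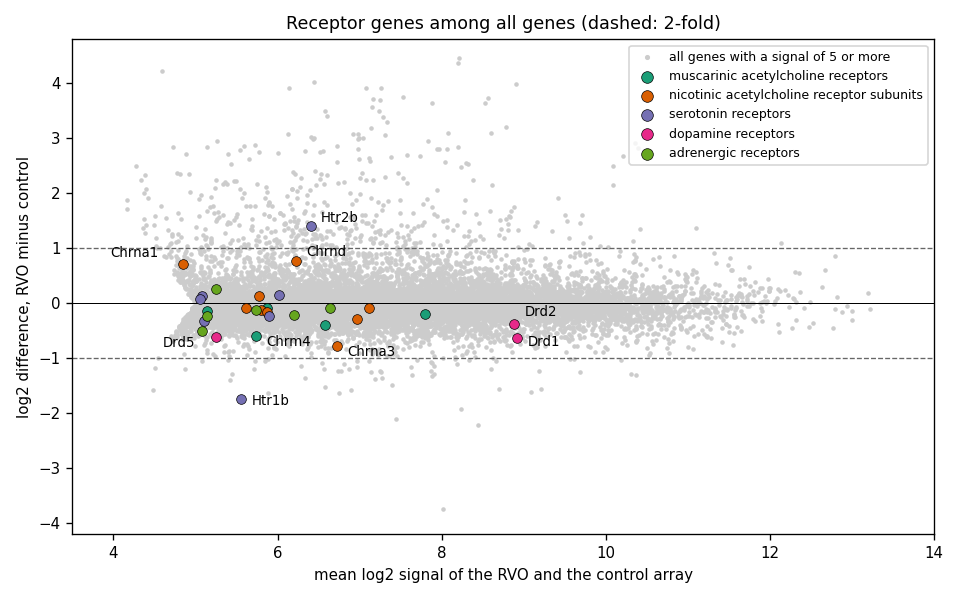
Log2 difference, RVO minus control (y axis), against the mean log2 signal of both arrays (x axis), for the 30 receptor genes past the signal limit, colored by family, and for all 12724 genes in gray. Htr2b lies above and Htr1b below the dashed 2-fold lines, and the other 28 receptor genes lie between -0.78 and 0.76.

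All 3 dopamine receptors past the limit were lower in the RVO array, beside 56% of all genes. Each was within 2-fold, which 3.98% of all genes exceeded. Drd1, which raises cyclic AMP through Gs and is found on bipolar and horizontal cells, had a signal of 8.61 in the RVO array and 9.23 in the control array, a difference of -0.63 or 0.648-fold. Drd5, the other Gs-coupled dopamine receptor, had 4.94 in the RVO array and 5.55 in the control array, a difference of -0.61 that rests on an RVO signal under 5. Drd2, coupled to Gi/o and known as the autoreceptor of dopamine neurons, had 8.69 in the RVO array and 9.08 in the control array, a difference of -0.38 or 0.767-fold. The median of the 3 was -0.61, the value of Drd5 itself, and over Drd1 and Drd2, which reached 5 in both arrays, it was -0.50. Drd1 ranked 294th from the bottom of 12724 genes. Drd3 lay under the limit at 4.36 in the RVO array and 4.56 in the control array. Drd1 and Drd2 differed in the same direction as lists of retinal neurons: amacrine cell genes had a median of -0.33, with Calb2, a calcium-binding protein, beyond 2-fold at -1.62, bipolar cell genes of -0.39 and rod and cone genes of -0.44, and the part of those cells in the dopamine receptor values was not tested.

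All 5 muscarinic receptors were past the limit and below 0, beside 56% of all genes, with a median of -0.20. None passed 2-fold, where 3.98% of all genes did. The Gi/o-coupled pair held the larger differences. Chrm4 had 5.44 in the RVO array and 6.03 in the control array, a difference of -0.59 or 0.662-fold, and Chrm2, the receptor that slows the heart, had 6.38 in the RVO array and 6.78 in the control array, a difference of -0.40. Among the Gq-coupled receptors, Chrm3, which drives secretion by glands and contraction of smooth muscle, had 7.69 in the RVO array and 7.89 in the control array. Chrm1, the main muscarinic receptor of the forebrain, had 5.07 in the RVO array and 5.20 in the control array, and Chrm5 had 5.82 and 5.91 in the same order. The differences of Chrm1 and Chrm5, at -0.14 and -0.09, were within the probe set SD of 0.19. That of Chrm5 turned to 0.0035 with the trend with mean signal removed.

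None of the 6 adrenergic receptors past the limit passed 2-fold, where 3.98% of all genes did. They lay between -0.49 and 0.26 with a median of -0.16, and 5 were below 0, beside 56% of all genes. Adra2a, the Gi/o-coupled autoreceptor of noradrenergic neurons, had 5.38 in the RVO array and 5.12 in the control array, and it was the one adrenergic receptor above 0. Adra2b, a second Gi/o-coupled receptor, had 4.83 in the RVO array and 5.32 in the control array, and this difference of -0.49 rests on an RVO signal under 5. Of the Gq-coupled receptors, which constrict vessels, Adra1a had 6.09 in the RVO array and 6.30 in the control array, Adra1b had 6.59 and 6.68, and Adra1d had 5.03 and 5.25 in the same order, with differences from -0.23 to -0.08. Adrb3, a Gs-coupled receptor of fat cells, had 5.68 in the RVO array and 5.80 in the control array, and Adrb1, the Gs-coupled receptor of the heart, lay under the limit at 4.50 in the RVO array and 4.85 in the control array.

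Grouped by signaling class, the Gi/o-coupled receptors had a median of -0.39 over 8 genes, 6 of them below 0. Of these 6, Htr1b, Adra2b and Htr5a passed the limit through the control array alone, and over the 5 genes that reached 5 in both arrays the median was -0.38, with 3 below 0. The Gs-coupled receptors had a median of -0.24 over 5 genes and of -0.17 over 4 without Drd5. The Gq-coupled receptors, which all reached 5 in both arrays, had a median of -0.11 over 8 genes. The ligand-gated channels, all nicotinic, had a median of -0.09 over 9 genes and of -0.11 over 8 without Chrna1. The median over all genes was -0.04, and 56% of them were below 0. Each class held members on both sides of 0, and whether the classes differ was not tested.

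Of the 42 receptor genes, 12 were under 5 in both arrays and no fold is given for them. They were the serotonin receptors Htr1d, Htr1f, Htr2c, Htr3a, Htr3b, Htr4 and Htr5bp, the nicotinic subunits Chrna2, Chrna5 and Chrna9, and Drd3 and Adrb1. Their signals ran from 2.90 to 4.91 in the RVO array and from 3.09 to 4.96 in the control array. Both channel-forming serotonin subunits of the set, Htr3a and Htr3b, are among them. A signal under the limit does not show that a gene is not used. In the RefSeq order of genes 4 pairs lie next to each other with no other protein-coding gene between them. Chrna3 was at -0.78 while its neighbor Chrna5 was under the limit in both arrays, and Chrnd was at 0.76 while Chrng was at 0.14. Chrna6 and Chrnb3 are the third pair and were both lower by over 2-fold, and Htr3a and Htr3b, the fourth pair, were both under the limit.

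**Figure D3:**
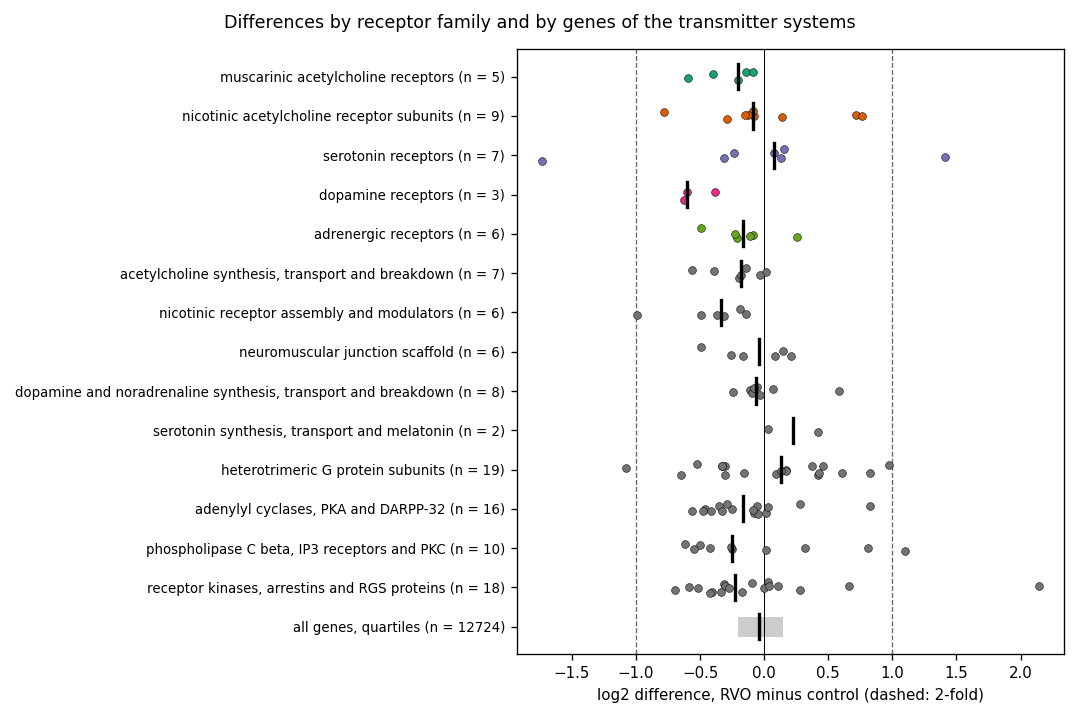
Log2 difference, RVO minus control (x axis), of each gene past the signal limit in the 5 receptor families (colored) and in 9 lists of other genes of these transmitter systems (gray), with black bars at the medians and a gray bar for the quartiles of all 12724 genes, -0.20 and 0.15. Dopamine receptors lie left of 0, serotonin receptors extend on both sides, and Rgs10 at 2.14 is the point farthest to the right.

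Genes that make, pack and take up the transmitters were, where past the limit, all within 2-fold, which 3.98% of all genes exceeded. Of 7 genes of acetylcholine metabolism past the limit, 6 were below 0, beside 56% of all genes, with a median of -0.18. Over the 6 genes of this list that reached 5 in both arrays the median was -0.16. Slc18a3, which loads acetylcholine into vesicles, had 5.35 in the RVO array and 5.91 in the control array, and Slc5a7, which takes up choline, had 5.90 and 6.29 in the same order. Chat, which makes acetylcholine, had 5.55 in the RVO array and 5.69 in the control array, a difference of -0.14. Of 8 genes that mark starburst cells, these 3 included, 5 were below 0, beside 56% of all genes. The lowest of the 8 is also in the list of ganglion cell genes. The median of the 8 was -0.16, which turned to 0.01 with the limit at 6. Megf10, an adhesion receptor of starburst cells, differed by 0.28, and Sox2, a transcription factor that other retinal cells also use, by 0.43. All 6 genes past the limit that fold nicotinic receptors or bind to them were below 0, beside 56% of all genes, with a median of -0.34. Lypd6 and Lypd6b passed through the control array alone, so their direction is tied to the limit. Over the 4 that reached 5 in both arrays the median was also -0.34. Tmem35a, the chaperone also called Nacho, had 7.48 in the RVO array and 7.97 in the control array. Lypd6, a small surface protein that modulates the receptor, had 4.05 in the RVO array and 5.04 in the control array, a difference of -0.99 just within 2-fold that rests on an RVO signal under 5.

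Of 8 genes of dopamine and noradrenaline metabolism past the limit none passed 2-fold, where 3.98% of all genes did. Their median was -0.07. The vesicular transporter Slc18a2 had 7.02 in the RVO array and 7.10 in the control array. Maoa, an oxidase that breaks down noradrenaline and serotonin, had 6.99 in the RVO array and 6.40 in the control array, a difference of 0.58 and the highest of the list. Dbh, which turns dopamine into noradrenaline, had 6.68 in the RVO array and 6.79 in the control array, and Pnmt, which turns noradrenaline into adrenaline, had 5.27 and 5.37 in the same order. Ddc, which makes dopamine and serotonin from their precursors, Gch1, which starts the synthesis of a cofactor of this pathway, the vesicular transporter Slc18a1 and the noradrenaline transporter Slc6a2 lay under 5 in both arrays. For serotonin, the plasma membrane transporter Slc6a4 had 7.52 in the RVO array and 7.10 in the control array, a difference of 0.42, and Aanat, which makes the precursor of melatonin, had 8.16 and 8.13 in the same order. The synthetic enzymes Tph1 and Tph2 lay under 5 in both arrays.

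In lists of 18, 10, 19 and 16 genes downstream of the receptors, 3 genes passed 2-fold in all, where 3.98% of all genes did. Rgs10, which shortens Gi/o signals and is abundant in microglia, had a signal of 7.53 in the RVO array and 5.39 in the control array, a difference of 2.14, and was the 1 of 18 receptor kinases, arrestins and Rgs genes beyond 2-fold. The median of that list was -0.22, with Rgs7, a partner of Gnb5 in neurons, at -0.69. Prkcd, an isoform of protein kinase C, had 6.54 in the RVO array and 5.44 in the control array, a difference of 1.10, and was the 1 of 10 genes of the phospholipase C branch beyond 2-fold, in a list with a median of -0.25. Gng4, a gamma subunit of G proteins in neurons, had 7.33 in the RVO array and 8.41 in the control array, a difference of -1.08, and was the 1 of 19 G protein genes beyond 2-fold. That list had a median of 0.13, with Gng5 at 0.97 and Gnb5 at -0.65. Of 16 genes of the cyclic AMP branch none passed 2-fold, and the median was -0.17. Adcy7, a cyclase of blood cells, differed by 0.82 from a control signal of 4.97, and Prkacb, a catalytic subunit of protein kinase A, by -0.48. Microglia and macrophage genes had a median of 1.92 in the same arrays, and their part in the values of Rgs10, Prkcd and Adcy7 was not tested.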

How the data were processed

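Retinal RNA was hybridized to 1 array for RVO and 1 for the control. Per the study's methods, the authors deposited log2 signals after RMA in R (version 3.6.0), which corrects background, normalizes both arrays to one distribution and summarizes each probe set. For the probe set annotation of that step, a version was not given in the sources used here. These values were used unchanged. Of 26193 probe sets, 15816 had 1 symbol in the platform annotation, 376 had several and 10001 had none, and each gene was represented by its probe set of highest mean signal. The median log2 signal was 6.23 in the RVO array and 6.25 in the control array. A gene was left out when both signals were under 5. Differences were computed in Python 3.11.15 with pandas 2.3.3, and the counting was tested on simulated data. The number of arrays limits the precision, and no significance test was run. The receptor genes and all lists were chosen with earlier results of these data known. Text names receptor genes beyond 2-fold, the highest and lowest of each family and the other members past the limit, and from the lists of these transmitter systems genes beyond 2-fold and those that make, pack or take up the transmitters. The rule also covered cell type and housekeeping genes beyond 2-fold, which are given by counts, medians and sums, with Crygs, Calb2, B2m, Lum and Dcn alone named. Lypd6, Lypd6b, Tmem35a, Musk, Rapsn, Lrp4, Megf10, Sox2, Maoa, Rgs7, Gnb5, Gng5, Adcy7 and Prkacb were added after their values were seen. Alternatives were the signal limit, the scaling, the averaging of probe sets, the fold limit and the selection.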

Additional observations from a re-analysis of the deposited data

How the results depend on the processing

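Only the 4 other scalings could change the difference of a single receptor gene. Each such gene has 1 probe set, and the limits only decide which genes are read or counted. Under these scalings no difference of a receptor gene moved by as much as the probe set SD of 0.19. Those of Chrm5 and Chrna10 changed sign, to 0.0035 and 0.01 with the trend with mean signal removed. Over the 4 other scalings, the last of them chosen after seeing the data, 1 receptor gene was higher and 1 lower by over 2-fold each time, 20 to 22 were below 0, beside 48.2% to 56.6% of all genes, and the median ran from -0.13 to -0.05, while that of all genes ran from -0.04 to 0.01. With a limit of 5 in both arrays no receptor gene was lower by over 2-fold, since Htr1b has an RVO signal under it (0 of 25, beside 0.439% of all genes). With a limit of 6 fewer genes were read, 12 of 15 receptor genes were below 0, beside 54.6% of all genes, and the muscarinic median was -0.40. The same limit gave medians of 1.17 for smooth muscle and pericyte genes and 1.45 for fibroblast genes, against 0.49 and 1.71 at 5. It gave 0.18 for lens genes and -0.28 for melanocyte genes of iris, ciliary body and choroid, against -0.15 and -0.06 at 5. With 5 in both arrays the microglia median was 2.19 and the fibroblast median 1.17, against 1.92 and 1.71 with 5 in either array. With no limit the serotonin metabolism median was -0.17, against 0.23 over the 2 genes that passed the limit of 5. At 1.5-fold 3 receptor genes were higher and 5 lower, beside 7.25% and 3.03% of all genes, and at 3-fold 0 were higher and 1 was lower, beside 1.52% and 0.0629%. With Chrna6 and Chrnb3 added, 3 were lower by over 2-fold, beside 0.479% of all genes. With the difference centred on its median, a change chosen after seeing the data, 1 G protein gene was higher by over 2-fold. The median of nerve-muscle junction genes, -0.04, was 0.08 with no limit and with 5 in both arrays, 0.11 at 6, 0.04 with the trend removed and 0.01 with the difference centred. The starburst median, -0.16, was 0.01 at 6, and the melanocyte median, -0.06, was 0.02 with the trend removed. The serotonin family median, 0.08, was 0.00013 with no limit and -0.04 at 6. No paired analysis was possible because each group has 1 array.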
